A study of Mus musculus with 12 samples.

Results

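The epidermal growth factor (EGF) receptor system of mouse mesangial cells (MMC) was examined through 10 of the 25230 genes counted. The rule that selects them uses the gene symbol and no measured value, although the set was drawn up with earlier results of these data known. It takes the receptor genes Egfr, Erbb2 and Erbb3, the ligand genes Hbegf, Areg, Ereg, Btc, Tgfa and Nrg1, and Errfi1, which encodes an inhibitor of the receptors. All 10 had counts. Of these, 7 passed the limit of RPKM >1 (counts scaled to the size of the library and the exon length of the gene) in at least 1 library, as did 11471 genes in all, and Areg passed it only in KO-TGF. Erbb3, Btc and Tgfa did not pass, and were tested in a wider fit that took in every gene with a count, 18565 in all.

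MMC are the contractile support cells of the glomerular capillaries. RNA-seq counts were available for 4 groups of 3 libraries, named WT-SD and WT-TGF for wild-type cells, KO-SD and KO-TGF for edited ones, to ask how loss of the long non-coding RNA lncMGC alters the cells and their response to TGF-β. WT MMC came from wild-type mice and KO5 MMC from homozygotes of the lncMGC-KO5 line, made in C57BL/6J embryos with Cas9 and a pair of guides on either side of the lncMGC start site. SD cells were serum-depleted controls, and TGF cells received TGF-β at 10 ng/ml for 24 h. All 4 groups were primary cultures from pooled glomeruli, grown in RPMI medium with fetal bovine serum. KO5 is a single edited line, the number of mice behind each culture is not given in the sources used here, and the ages of the mice are not given either. Genotype and culture therefore cannot be told apart, and p-values cover only the spread between these libraries, which may be technical. lncMGC was not analysed here, so the genotype of each library is as labelled.

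The ligands of this system are made as membrane-anchored precursors, and proteases of the ADAM family cut them free to act on neighboring cells or on the cell that made them. TGF-α and amphiregulin bind the EGF receptor, while HB-EGF, epiregulin and betacellulin bind it and ERBB4, and neuregulins bind ERBB3 and ERBB4. The receptors pair up on binding a ligand, often with ERBB2, which has no known ligand of its own, and signal through the RAS-ERK and PI3K-AKT pathways. In the kidney, activity of the EGF receptor in mesangial and tubular cells is studied in connection with fibrosis and diabetic kidney disease.

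Each library held between 19898050 and 22827706 counts on genes. Levels are given as CPM, counts scaled to library size with TMM factors (the trimmed mean of M-values), and differences as log2 fold changes with standard errors (SE). Values after ± are standard deviations over libraries. The TMM factors differed between groups, from 0.90 in the lowest KO-TGF library to 1.09 in WT-SD. Without them, the median log2 fold change of all genes tested was -0.16 with TGF-β in WT and -0.23 in KO5, -0.06 for KO-SD against WT-SD and -0.13 for KO-TGF against WT-TGF, in place of -0.02 to 0.02 with them. Small differences therefore depend on the scaling. In these bulk libraries, fewer cells of a type and less RNA per cell cannot be told apart.

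Calls on all 10 genes were counted in the wider fit, in edgeR's quasi-likelihood test at a false discovery rate (FDR, Benjamini-Hochberg) <5%. With TGF-β in WT MMC, Hbegf, Areg, Ereg, Nrg1 and Errfi1 rose and Erbb2 and Tgfa fell, or 5 higher and 2 lower of 10 genes, beside 23.7% of all 18565 genes higher and 27.8% lower. In KO5 MMC, Hbegf, Areg, Nrg1 and Errfi1 rose and Egfr, Erbb2, Btc and Tgfa fell, beside 22.9% of all genes higher and 29.3% lower. In SD, Areg, Btc and Erbb2 were higher in KO5 than in WT and 6 genes were lower, all others but Errfi1, beside 20.5% and 20.4%. With TGF-β, Areg, Hbegf and Nrg1 were higher in KO5, and Egfr, Erbb3, Ereg and Tgfa were lower, beside 17.7% and 21.4%. The response itself differed between the genotypes for 5 of the 10 genes, as the interaction of genotype and treatment. It was higher in KO5 for Hbegf and Nrg1 and lower for Egfr, Ereg and Btc, beside 5.57% of all genes with a higher and 11.2% with a lower response. Values below come from the fit under the RPKM limit, other than those of Areg, Erbb3, Btc, Tgfa, Egf and Erbb4. In that fit 35.9% of all 11471 genes were higher and 36.5% lower with TGF-β in WT, 35.0% and 39.0% in KO5, 30.6% and 25.3% for KO5 against WT in SD, 27.3% and 27.8% with TGF-β, and 8.78% and 16.6% for the difference between the responses. Comparisons that use the same group share its 3 libraries and are not independent of each other.

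**Figure D1:**
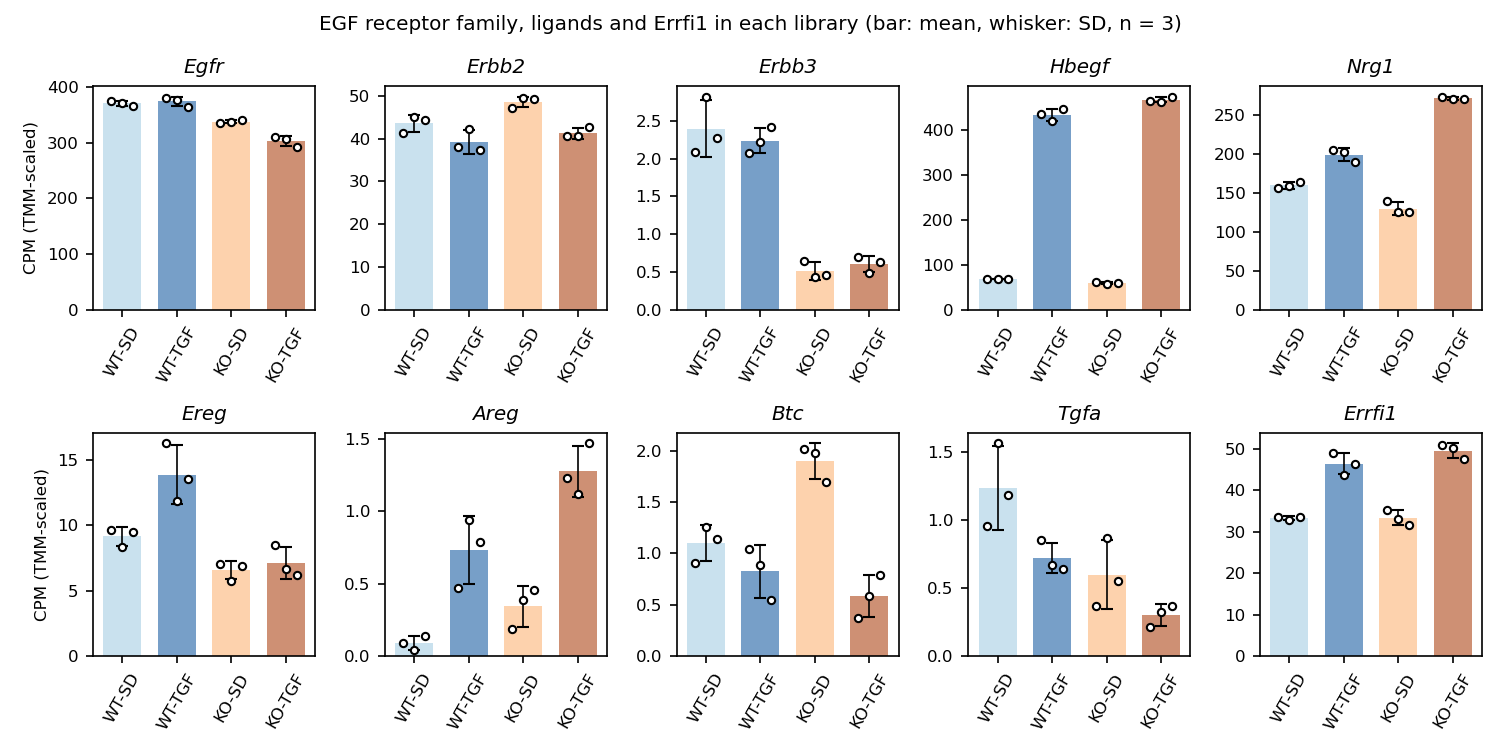
Level of each of the 10 genes in CPM (TMM-scaled) by group. Points are libraries, bars the mean and whiskers the SD of 3 libraries, and every axis starts at 0. In the Hbegf panel both TGF groups stand far above both SD groups, in the Erbb3 panel both WT groups stand above both KO groups, and in the Egfr panel KO-TGF is the lowest group.

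Egfr encodes the receptor that gives the family its name. It lies at chr11:16752203-16913907 on the plus strand of GRCm38.p6, the build of all gene positions below. The 3 WT-SD libraries had 375, 372 and 367 CPM, and with TGF-β the WT libraries had 381, 378 and 365 CPM. The KO5 libraries were all below these, at 335, 338 and 341 CPM (KO-SD) and 310.1, 307 and 292 CPM (KO-TGF). The WT groups overlapped and the KO groups overlapped neither with WT nor with each other. Relative to WT, Egfr was thus 1.10-fold lower in KO5 under SD (log2 fold change -0.14, SE 0.026, edgeR adjusted p = 4.40e-05) and 1.24-fold lower under TGF-β (-0.31, SE 0.026, adjusted p = 1.95e-11). TGF-β gave a log2 fold change of 0.01 in WT (95% interval -0.04 to 0.06, edgeR adjusted p = 0.681), where scaling by library size alone turned the value to -0.14 with adjusted p = 1.33e-05. In KO5 the change was -0.16 (SE 0.026, edgeR adjusted p = 3.80e-06), and the difference between the responses was -0.17 (SE 0.037, adjusted p = 0.000681). Without KO-TGF replicate 3, the lowest library, that difference was -0.11, with adjusted p = 0.0376.

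Erbb2, the partner receptor without a ligand of its own, lies at chr11:98412484-98437716 on the plus strand. Its libraries ran from 41.3 to 45.0 CPM in WT-SD, 37.2 to 42.3 in WT-TGF, 47.3 to 49.4 in KO-SD and 40.5 to 42.8 in KO-TGF. KO-SD was the highest group and overlapped with no other, whereas the other groups overlapped with each other. The TGF-β change was -0.15 on the log2 scale in WT (SE 0.048, edgeR adjusted p = 0.00676) and -0.24 in KO5 (SE 0.048, adjusted p = 6.78e-05). The change in WT lost its call without WT-TGF replicate 3 (-0.11, adjusted p = 0.0572). The excess in KO-SD over WT-SD was 0.16 (SE 0.046, edgeR adjusted p = 0.00451), and 0.09 (adjusted p = 0.120) when scaled by library size alone. Between the TGF groups the difference was 0.07 (adjusted p = 0.226), -0.05 by library size alone, and 0.13 with a call at adjusted p = 0.0342 without WT-TGF replicate 2. The difference between the responses was -0.09 (95% interval -0.23 to 0.05).

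Erbb3, a receptor for neuregulins whose own kinase is weak, lies at chr10:128567523-128589635 on the minus strand. It was counted 46, 65 and 50 times in the WT-SD libraries, 44, 50 and 49 times in WT-TGF, 14, 9 and 10 times in KO-SD and 13, 9 and 12 times in KO-TGF. The WT and KO libraries did not overlap in either condition. In CPM this was 2.40 ± 0.379 (SD, n = 3) for WT-SD and 0.512 ± 0.114 for KO-SD, or -2.22 as log2 fold change (SE 0.252, edgeR adjusted p = 1.59e-17 in the wider fit). With TGF-β it was 2.24 ± 0.171 CPM for WT and 0.602 ± 0.110 for KO5, or -1.88 (SE 0.258, adjusted p = 2.51e-12). In that fit, 20.4% of all genes were lower and 20.5% higher in KO5 under SD, and 21.4% lower and 17.7% higher under TGF-β. No change with TGF-β passed the test in either genotype (95% interval -0.46 to 0.25 in WT and -0.48 to 0.93 in KO5). Erbb4, the other neuregulin receptor and no member of the 10, was at 1.81 CPM under SD and 0.501 under TGF-β in WT, and at 0.124 and 0.0531 in KO5.

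The summed levels of tubular epithelial and macrophage markers were lower in KO5 than in WT, as Erbb3 was. That of 5 endothelial markers was higher in KO-SD (0.597 to 1.01 CPM) than in WT-SD (0.304 to 0.593), and overlapped between genotypes with TGF-β. The summed level of 6 tubular epithelial markers ran from 67.8 to 74.6 CPM in WT-SD, 17.2 to 18.8 in WT-TGF, 12.9 to 15.0 in KO-SD and 4.01 to 4.25 in KO-TGF. It came almost wholly from Lrp2 and Cdh16, while Slc34a1 and Umod had no count in any library and Epcam no more than 3. Cdh1 was not lower in KO5, at 0.270 CPM in WT-SD, 0.206 in WT-TGF, 0.311 in KO-SD and 0.230 in KO-TGF. The summed level of 7 macrophage markers was 24.6 to 26.1 CPM in WT-SD, 15.0 to 18.4 in WT-TGF, 2.06 to 2.22 in KO-SD and 0.801 to 1.44 in KO-TGF, with Adgre1, C1qa and C1qb at 0 in all KO libraries. Lrp2 and Cdh16 also fell with TGF-β in both genotypes, a change that was not called for Erbb3. The part of these markers in the differences between KO5 and WT, for Erbb3 and for the genes below, was not tested.

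The ligands were compared with each other per exon length. That length is the union of annotated exons, 10351 bases for Nrg1 and 4834 for Hbegf, so shares between genes depend on the annotation. In WT-SD, Nrg1 made up 48.0% ± 0.583 (SD, n = 3) and Hbegf 43.5% ± 0.581 of the summed RPKM of the 6 ligand genes, and Ereg 6.89% ± 0.524. With TGF-β the summed RPKM went from 31.8-32.7 to 110.1-114.6 in WT and from 25.9-28.4 to 124-127 in KO5. Hbegf then held 79.2% ± 1.01 of it in WT and 76.8% ± 0.342 in KO5, and Nrg1 17.0% ± 0.909 and 20.8% ± 0.256. Areg, Btc and Tgfa each stayed at or under 1.56% in every group mean. Among the receptors, Egfr held 76.0% to 80.7% of the summed RPKM of the 3 genes, Erbb2 18.4% to 23.8% and Erbb3 under 1% in each group.

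**Figure D2:**
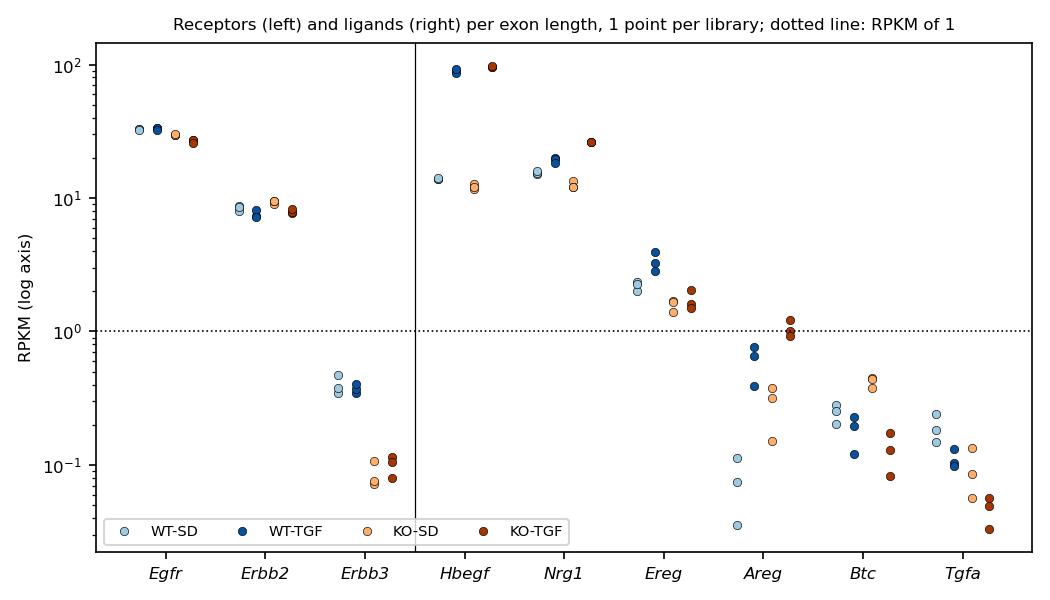
RPKM of the 3 receptor genes (left) and the 6 ligand genes (right) in each of the 12 libraries, on a log axis, with the RPKM limit of 1 as a dotted line. Hbegf in the TGF groups, with means of 89.6 in WT-TGF and 96.6 in KO-TGF, is the highest of all points, and Erbb3, Btc and Tgfa lie below the limit in every library.

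Hbegf encodes heparin-binding EGF-like growth factor and lies at chr18:36504927-36515805 on the minus strand. The WT-SD libraries had 67.4, 67.1 and 67.8 CPM, against 435, 419 and 445 CPM for WT-TGF. The KO-SD libraries had 61.1, 56.0 and 58.0 CPM and the KO-TGF libraries 465, 462 and 474 CPM. All TGF libraries were above all SD libraries, KO-SD was below WT-SD without overlap, and KO-TGF was above WT-TGF without overlap. TGF-β raised Hbegf 6.42-fold in WT (log2 fold change 2.68, SE 0.031, edgeR adjusted p = 1.92e-33) and 7.99-fold in KO5 (3.0, SE 0.032, adjusted p = 1.57e-34). The response was larger in KO5 by 0.32 (SE 0.045, edgeR adjusted p = 1.97e-06). That difference joins a lower start, -0.21 in KO-SD against WT-SD (SE 0.036, adjusted p = 1.22e-05), and a higher level with TGF-β, 0.11 (SE 0.027, adjusted p = 0.000931). The latter was not called and turned to -0.01 (adjusted p = 0.727) with library sizes alone, so the direction in the TGF groups depends on the scaling.

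Nrg1 encodes neuregulin 1 and lies at chr8:31807452-32891609 on the minus strand. In WT the libraries had 156, 158 and 164 CPM under SD and 205, 202 and 189.7 CPM under TGF-β. In KO5 they had 139, 125 and 125 CPM under SD and 273, 270.0 and 270.1 CPM under TGF-β. The groups did not overlap, and KO5 held both the lowest and the highest of them. TGF-β raised Nrg1 1.25-fold in WT (log2 fold change 0.32, SE 0.034, edgeR adjusted p = 1.08e-09) and 2.09-fold in KO5 (1.07, SE 0.034, adjusted p = 2.25e-22). By library size alone the rise in WT was 0.16, still called. The difference of 0.75 between the responses (SE 0.048, edgeR adjusted p = 2.25e-13) was called under every alternative run. Against WT, Nrg1 was lower in KO5 under SD (-0.30, SE 0.035, adjusted p = 1.43e-08) and higher under TGF-β (0.45, SE 0.033, adjusted p = 7.88e-13), and neither direction changed with the scaling.

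Ereg, Areg and Btc, for epiregulin, amphiregulin and betacellulin, lie in the same stretch of chromosome 5, at chr5:91074617-91093649 (plus strand), chr5:91139599-91148432 (plus strand) and chr5:91357261-91402994 (minus strand). Their patterns over the 4 groups were unlike. Ereg was highest in WT-TGF, Areg in KO-TGF and Btc in KO-SD.

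Ereg stood at 9.66, 8.30 and 9.44 CPM (WT-SD), 16.3, 11.8 and 13.5 CPM (WT-TGF), 7.03, 5.75 and 6.88 CPM (KO-SD) and 8.50, 6.68 and 6.19 CPM (KO-TGF). The WT-TGF libraries were above all others, and the 2 KO groups overlapped. TGF-β raised Ereg 1.51-fold in WT (log2 fold change 0.60, SE 0.106, edgeR adjusted p = 9.56e-06). In KO5 the value was 0.12 (95% interval -0.16 to 0.39, adjusted p = 0.434), and -0.08 by library size alone. Ereg was lower in KO5 in SD (-0.47, SE 0.122, edgeR adjusted p = 0.00148) and more so with TGF-β (-0.96, SE 0.116, adjusted p = 2.57e-08). The difference between the responses was -0.48 (SE 0.171, edgeR adjusted p = 0.0359), a call that DESeq2 did not make (0.0797) and that depended on single libraries. It was lost in 6 of the 12 fits that left out a library, those without WT-SD replicate 2, WT-TGF replicate 1, KO-SD replicate 1 or 3, or KO-TGF replicate 2 or 3, with values from -0.45 to -0.35 and adjusted p from 0.0601 to 0.168.

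Areg was near the limit of detection. The WT-SD libraries held 2, 1 and 3 counts, none above the floor of 3 counts, and the WT-TGF libraries 10, 21 and 16. KO-SD had 4, 8 and 10 counts and KO-TGF 23, 21 and 28. Every TGF library had more CPM of Areg than every SD library of its genotype, and every KO library more than every WT library of its condition. Summed counts rose from 6 to 47 in WT, a ratio of 8.21 after scaling (exact 95% interval 3.5 to 23.5, counting error only), and from 22 to 72 in KO5, a ratio of 3.73 (2.28 to 6.31). Since Areg passed the RPKM limit only through KO-TGF, where it is highest, its tests are given from the wider fit. The log2 fold changes there were 2.95 (SE 0.513, edgeR adjusted p = 3.19e-08) and 1.88 (SE 0.346, adjusted p = 1.83e-07), with no call on their difference (95% interval -2.43 to 0.27). Against WT, the ratio was 3.82 in SD (1.5 to 11.5) and 1.73 with TGF-β (1.18 to 2.56), with edgeR adjusted p = 0.00738 and 0.0196. When libraries were left out under the RPKM limit, the call in SD was lost without WT-SD replicate 2 (adjusted p = 0.0579) or KO-SD replicate 3 (0.0620), and that with TGF-β without WT-TGF replicate 1 (0.135) or KO-TGF replicate 3 (0.0903) and in DESeq2 (0.0928).

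Promoter windows from RefSeq (GRCm38.p6) were searched for 6 of the 10 genes, with 7 windows in all. Areg and Errfi1 were the members whose windows held the letters TGACGTCA, a cyclic AMP response element, together with TATAAA, which the basal transcription machinery binds. The window at the upstream start of Errfi1 held neither. The 250 bases upstream of the start are shown as a description, and a link of these letters to TGF-β was not tested. Capitals mark these letters, and the Egfr window, which holds neither, is shown for contrast. The Areg window is chr5:91139349-91139598, the Errfi1 window, at the downstream of 2 annotated starts, is chr4:150854820-150855069, and the Egfr window is chr11:16751953-16752202, all on the plus strand.
Areg: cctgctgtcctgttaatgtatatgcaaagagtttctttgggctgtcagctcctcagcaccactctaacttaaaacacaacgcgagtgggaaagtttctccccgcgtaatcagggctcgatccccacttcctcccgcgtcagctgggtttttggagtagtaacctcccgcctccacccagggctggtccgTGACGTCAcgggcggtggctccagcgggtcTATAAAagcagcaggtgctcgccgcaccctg
Errfi1: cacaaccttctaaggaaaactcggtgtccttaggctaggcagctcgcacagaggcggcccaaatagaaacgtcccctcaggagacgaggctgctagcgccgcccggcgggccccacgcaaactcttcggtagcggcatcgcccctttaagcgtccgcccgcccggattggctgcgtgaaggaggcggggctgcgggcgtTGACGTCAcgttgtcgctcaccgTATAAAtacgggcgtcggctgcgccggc
Egfr: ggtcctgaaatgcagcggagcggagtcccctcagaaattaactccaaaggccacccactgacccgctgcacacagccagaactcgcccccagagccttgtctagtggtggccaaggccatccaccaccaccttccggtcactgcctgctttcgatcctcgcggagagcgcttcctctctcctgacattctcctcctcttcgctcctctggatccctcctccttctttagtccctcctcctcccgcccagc
TGACGTCA starts 61 bases before the start site in Areg and 51 in Errfi1, and TATAAA 31 and 28 bases before it. Over both strands of all 32851 mouse windows of 300 bases, 1.79% held TGACGTCA, 13.6% TATAAA and 0.17% both. The other letters searched were TGANTCA (AP-1, in 7.81% of windows), CATTCC (TEAD, 14.7%), CAGACA (SMAD, 21%) and GGGCGG (a GC box, 35.7%). The matches of TGACGTCA and TATAAA overlapped no match of another motif. The motifs were chosen with the sequences in view. A match describes letters, not binding. No window was found for Ereg, Nrg1 and Erbb3, and Hbegf was left out of the search, so its promoter was not examined. Hbegf and Nrg1, which also rose with TGF-β in both genotypes, are therefore not covered.

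Btc was counted 20, 29 and 25 times in WT-SD, 22, 20 and 11 times in WT-TGF, 44, 41 and 37 times in KO-SD and 7, 11 and 15 times in KO-TGF. KO-SD was above all other groups, and KO-TGF overlapped with WT-TGF. In the wider fit, Btc fell by 1.69 on the log2 scale with TGF-β in KO5 (SE 0.273, edgeR adjusted p = 2.25e-09), where 29.3% of all genes were lower and 22.9% higher. In WT the value was -0.41 (95% interval -0.95 to 0.12, adjusted p = 0.211). Under SD, Btc was higher in KO5 by 0.78 (SE 0.225, adjusted p = 0.00194), and the difference between the TGF groups was -0.50 (95% interval -1.15 to 0.14). The difference between the responses was -1.28 (SE 0.399, edgeR adjusted p = 0.0108, beside 11.2% of all genes lower and 5.57% higher), not called without WT-TGF replicate 1 (-1.09, adjusted p = 0.0772) or KO-TGF replicate 1 (-1.01, 0.0887), nor in DESeq2 (0.105).

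Tgfa, the gene of TGF-α, lies at chr6:86195038-86275744 on the plus strand. Its libraries held 21 to 36 counts in WT-SD, 13 to 18 in WT-TGF, 8 to 18 in KO-SD and 4 to 7 in KO-TGF. It was lower in KO5 than in WT under SD (log2 fold change -1.06, SE 0.293, edgeR adjusted p = 0.00103) and under TGF-β (-1.24, SE 0.406, adjusted p = 0.00713). The latter call was lost without KO-TGF replicate 1 (-1.04, adjusted p = 0.0551) and in DESeq2 (0.0507). Tgfa fell with TGF-β by 0.78 on the log2 scale in WT (edgeR adjusted p = 0.0117, beside 27.8% of all genes lower and 23.7% higher), not called without WT-SD replicate 2 (-0.57, 0.143) nor in DESeq2 (0.118). In KO5 the value was -0.96 (edgeR adjusted p = 0.0456), and 5 of the 12 fits that left out a library lost that call, with -0.60 and adjusted p = 0.347 without KO-SD replicate 2. DESeq2 (0.140), the fit of only the groups compared (0.0586) and the replicate block (0.0514) lost it too.

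Errfi1 encodes MIG6, which binds active EGF receptors, blocks their kinase and is itself induced by them. It lies at chr4:150853796-150868889 on the plus strand. Its libraries ran from 32.9 to 33.7 CPM in WT-SD, 43.8 to 48.9 in WT-TGF, 31.6 to 35.3 in KO-SD and 47.5 to 51 in KO-TGF. Both TGF groups stood above both SD groups, and the genotypes overlapped in each condition. TGF-β raised Errfi1 1.39-fold in WT (log2 fold change 0.48, SE 0.048, edgeR adjusted p = 3.68e-10) and 1.49-fold in KO5 (0.57, SE 0.049, adjusted p = 7.95e-12). The difference between the responses was 0.09 (95% interval -0.05 to 0.24). Between genotypes the values were 0.00 in SD (95% interval -0.10 to 0.11) and 0.10 with TGF-β (0.00 to 0.19, edgeR adjusted p = 0.0819). The latter was called without WT-TGF replicate 1 (adjusted p = 0.0291) or KO-TGF replicate 3 (0.0224) and was -0.02 by library size alone.

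**Figure D3:**
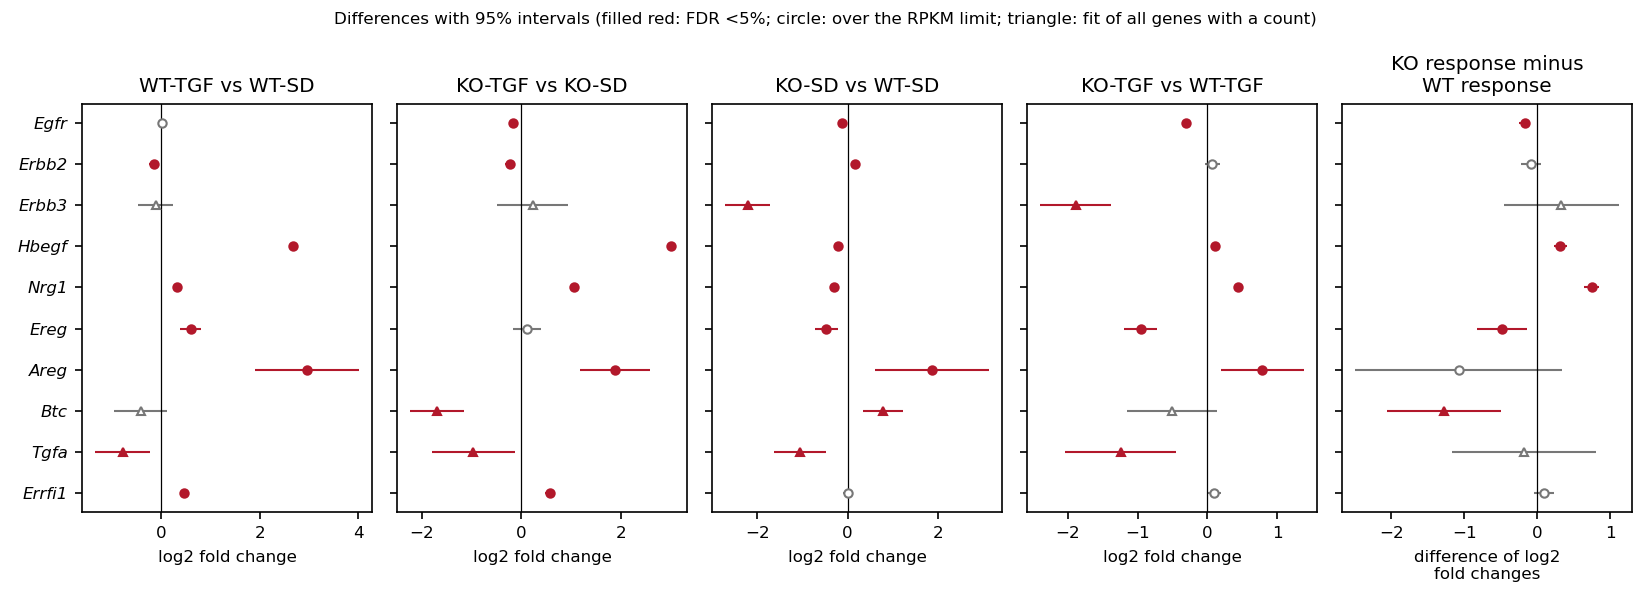
Log2 fold change of each gene in the 4 comparisons of groups, and the difference between the TGF-β responses in KO5 and WT, with 95% intervals from the edgeR fit. Filled red symbols passed FDR <5%, open gray ones did not, and triangles mark the genes under the RPKM limit. Areg, which passed that limit only in KO-TGF, is drawn as a circle from the fit with the limit, unlike its values in the text. Hbegf and Areg lie farthest to the right with TGF-β, and Erbb3 farthest to the left between genotypes.

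Other genes of the ERBB pathway were grouped by role, in lists drawn up with earlier results of these data known. Of 6 further ligands and receptors, none passed the RPKM limit. Nrg3 had no count in any library, which allows up to 3 counts in each, and Nrg4 had at most 1. Egf, at 1.42 ± 0.114 CPM (SD, n = 3) for KO-SD and 0.672 ± 0.233 for KO-TGF, fell with TGF-β in KO5 (log2 fold change -1.07, SE 0.283, edgeR adjusted p = 0.000421). In WT it was at 1.0 ± 0.0460 CPM under SD and 0.969 ± 0.188 under TGF-β, with no call (-0.04, SE 0.270).

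The sheddases and their carriers, 7 genes that free the ligands or escort the protease, included 3 that rose and 3 that fell with TGF-β in WT, beside 35.9% and 36.5% of all genes, and 4 and 2 in KO5 (2 and 4 by library size alone), beside 35.0% and 39.0%. Between genotypes 3 were higher and 1 lower in KO5 in both conditions, with 2 lower in SD and 4 with TGF-β by library size alone. Of all genes, 30.6% were higher and 25.3% lower in SD, and 27.3% and 27.8% with TGF-β. Adam17, the main protease for several of these ligands, fell by 0.40 on the log2 scale in WT (SE 0.035, edgeR adjusted p = 1.58e-11) and 0.42 in KO5 (SE 0.036, adjusted p = 6.12e-12). Adam19 was the farthest apart between genotypes. Under SD it stood at 63.7 ± 3.27 CPM (SD, n = 3) for WT and 141 ± 1.32 for KO5, a 2.21-fold difference (log2 1.14, SE 0.033, edgeR adjusted p = 6.38e-23), and 124 ± 3.21 against 264 ± 3.3 CPM with TGF-β (log2 1.09, SE 0.030, adjusted p = 1.43e-23). Adam12 was higher in KO-SD by 0.58 (SE 0.037, edgeR adjusted p = 2.18e-14) and Adam9 in KO-TGF by 0.47 (SE 0.027, adjusted p = 1.92e-15).

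Among 20 adaptors and effectors, 9 rose and 7 fell with TGF-β in WT, and 10 rose and 6 fell in KO5, beside 35.0% to 39.0% of all genes called in each direction. By library size alone the counts were 6 and 10 in WT and 5 and 12 in KO5, so the balance of this list depends on the scaling. Between genotypes 10 were higher and 4 lower in SD and 9 and 6 with TGF-β, and 6 and 6, and 3 and 10, by library size alone. Of all genes, 30.6% were higher and 25.3% lower in SD, and 27.3% and 27.8% with TGF-β. Pik3r1, the regulatory subunit of PI3 kinase, fell from a mean of 484 ± 10.1 CPM (SD, n = 3) to 178 ± 5.11 in WT (log2 fold change -1.44, SE 0.032, edgeR adjusted p = 1.76e-26). In KO5 it fell from 517 ± 20.8 to 143 ± 7.09 CPM (-1.86, SE 0.033, adjusted p = 5.22e-29). Braf, a RAF kinase, had a difference between the responses of 0.16 (SE 0.051, edgeR adjusted p = 0.0184), not called by library size alone (0.11) nor without WT-TGF replicate 2 or 3 or KO-SD replicate 2.

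The median TGF-β response of the 12 ERK-induced targets was 1.42 on the log2 scale for WT and 1.16 for KO5, against -0.01 and -0.02 for all genes tested. In WT, 10 of the 12 rose and none fell by edgeR, beside 35.9% and 36.5% of all genes, with 1 lower by library size alone. In KO5, 11 rose and Fos fell (-0.31, SE 0.124, edgeR adjusted p = 0.0275), a call that DESeq2 did not make. Dusp4, an ERK phosphatase, rose from a mean of 10.3 ± 0.673 CPM (SD, n = 3) to 59.9 ± 3.72 in WT, and in KO5 from 9.84 ± 0.823 to 67.2 ± 1.74 (log2 fold changes 2.54 and 2.77, edgeR adjusted p = 1.14e-25 and 1.43e-26). Fosl1, an AP-1 subunit, rose by 2.27 and 2.14 (SE 0.10 and 0.12, edgeR adjusted p = 6.87e-19 and 9.93e-17).

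Against WT, 7 of these 12 targets were lower in KO-SD and 9 in KO-TGF, with 1 and 2 higher (1 and 0 by library size alone). Of all genes, 25.3% were lower and 30.6% higher in SD, and 27.8% and 27.3% with TGF-β. Medians of the targets were -0.31 and -0.40, against 0.02 and -0.00 for all genes tested. The list was drawn up with earlier results of these data known, and ERK activity was not measured. Dusp6, an ERK phosphatase, stood at 26.2 ± 0.912 CPM under SD and 87.3 ± 5.87 under TGF-β in WT (SD, n = 3). In KO5 it stood at 19.1 ± 1.39 and 45.2 ± 1.23 CPM. It was lower in KO5 by 0.45 in SD (SE 0.063, edgeR adjusted p = 3.24e-07) and by 0.95 with TGF-β (SE 0.047, adjusted p = 3.24e-17). Ier3, an immediate early gene, was lower in KO-SD by 0.72 (SE 0.045, adjusted p = 1.30e-14), and Etv4, an ETS factor induced by ERK, in KO-TGF by 0.76 (SE 0.104, adjusted p = 2.60e-07). The difference between the responses was called for 4 of the 12, lower in KO5 for 3 and higher for Phlda1 (0.40, SE 0.064, edgeR adjusted p = 1.30e-05). Of all genes, 16.6% had a lower and 8.78% a higher response.

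Of 14 negative regulators, 9 rose and 2 fell with TGF-β in WT, beside 35.9% and 36.5% of all genes, and 6 rose and 4 fell in KO5, beside 35.0% and 39.0% (6 and 4, and 5 and 8, by library size alone). In KO5 against WT, 7 were higher and 1 lower in SD (5 and 2 by library size alone). With TGF-β, 5 were higher and 7 lower (1 and 9 by library size alone). The shares of all genes were 30.6% and 25.3% in SD, and 27.3% and 27.8% with TGF-β. The difference between the responses was lower in KO5 for 7 of the 14 and higher for none, beside 16.6% and 8.78% of all genes, with a median of -0.20 against -0.03 for all genes tested. Spry2, a feedback inhibitor of receptor kinases, fell from a mean of 12.6 ± 0.311 CPM (SD, n = 3) to 7.87 ± 1.26 in WT, and in KO5 from 18.5 ± 0.317 to 6.89 ± 0.564 CPM, a difference in response of -0.75 (SE 0.130, edgeR adjusted p = 4.35e-05). Lrig3, of a family of membrane proteins of which LRIG1 lowers ERBB receptors, rose in WT from 56.8 ± 3.82 to 122 ± 2.0 CPM, and in KO5 from 65.1 ± 3.43 to 87.5 ± 6.02 CPM (difference -0.67, SE 0.067, adjusted p = 2.40e-09).

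**Figure D4:**
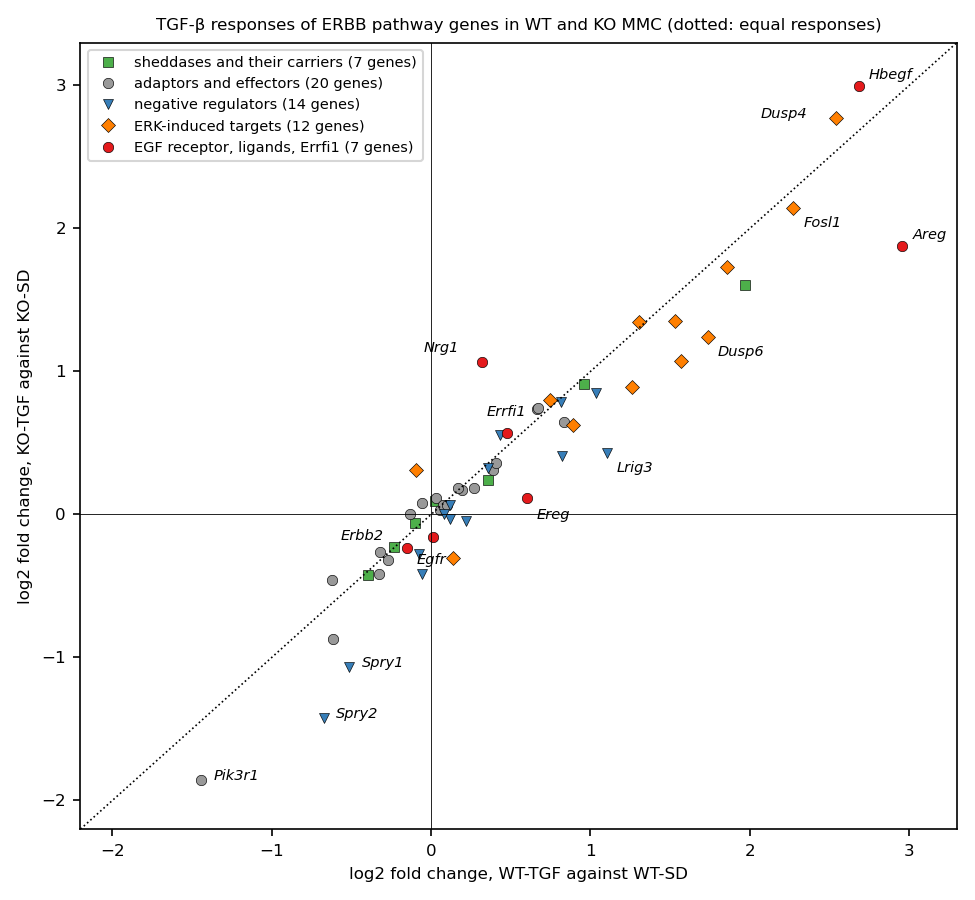
Log2 fold change with TGF-β in KO5 MMC (vertical axis) against WT MMC (horizontal axis) for the 7 genes over the RPKM limit and for 4 lists of pathway genes, with equal responses as a dotted line. Both axes rest on separate libraries. Nrg1 lies above the line, Areg, Ereg and Lrig3 below it, and most ERK-induced targets lie in the upper right.

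For the 3 genes over the RPKM limit with a called fold change above 2 between groups, the genes with the most similar log2 CPM over the 12 libraries were looked up, as a description. Closest to Hbegf were Slc20a1 (Pearson r = 0.999), Timp1 (0.999) and Aff1 (0.998), and 736 of 11470 genes had r above 0.95. For Nrg1 they were Ttc39b (0.988), Cdkn2b (0.982) and Epg5 (0.980), with 60 genes above 0.95. Areg, at its low counts, was closest to Tlnrd1, Dda1 and Copz1 (r of 0.979 to 0.980). The libraries share their groups, so such values mainly follow the 4 group means. Among the 10 genes themselves, Errfi1 and Hbegf were the most alike (r = 0.977), and Ereg and Areg, both on chromosome 5, had r = -0.03.

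The labelled cell type was checked against marker genes. Acta2, Tagln and Pdgfrb, of contractile and mesangial cells, were high in all groups, and the summed level of 6 mesangial markers ran from 2501 to 2638 CPM in WT-SD and from 10508 to 10591 CPM in KO-TGF. Acta2 and Tagln made up most of the sum in each group. Itga8 was at 2.90 CPM in WT-SD, 1.61 in WT-TGF, 3.05 in KO-SD and 0.637 in KO-TGF. Thy1 had at most 1 count, and Des was 7.68 CPM in WT-SD and 0.529 in KO-SD. Of the podocyte markers, Nphs1 had at most 1 count in a library, while the list summed to 440.2 to 447 CPM in WT-SD and 214 to 222 in KO-SD. The 5 endothelial markers summed to at most 1.01 CPM.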

How the data were processed

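RNA libraries of mouse mesangial cells, 3 for each of 4 groups, were sequenced by the authors. The deposited files hold raw counts of reads per gene, whole numbers without normalization, and the submitters' processing notes name TopHat, HTSeq and the mm10 build. Rows that name no gene were left out of library sizes. They held 10.3% to 15.4% of reads for no feature, 11.2% to 11.7% for multiple alignments and 0.225% to 0.274% for ambiguous reads, as shares of each file's total. Per the study's methods, HTSeq counted reads on the reverse strand setting and left out poor alignments.

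CPM and RPKM were computed here, with TMM factors and the union of exon lengths (GENCODE vM21). Of the gene symbols, 24415 matched by symbol and 286 by an older symbol, and 529 were not matched. edgeR 4.0.16 in R 4.3.3 fitted the counts of all 12 libraries with a term for each group by the quasi-likelihood test, with p-values adjusted by the Benjamini-Hochberg method over 11471 genes with RPKM >1 in at least 1 library, or over all 18565 genes with a count for the genes below that limit and for Areg. The floor of 3 counts was 0.130 to 0.160 CPM in a library. Ratios of summed counts carry exact binomial intervals for counting error only.

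Members and gene lists were chosen with earlier results of these data known. All 10 members are named. Of the other pathway genes, up to 4 called genes are named in each comparison, the 2 farthest up and the 2 farthest down among those reaching 5 CPM in the higher group. Adam17, Fos, Egf and Erbb4 were named after their values were seen. The level of 1 marker gene is not reported here. Nothing says that libraries of a group came from separate mice or cultures. Pairs of libraries in a group differed by 1.33 to 5.20 in chi-square per degree of freedom, more than sampling noise. An exact permutation test of 3 against 3 libraries cannot go below p = 0.1 and was not used. Alternatives were library size alone, DESeq2 1.42.0, no filter, a filter on CPM, only the groups compared, a replicate block, and leaving out each library. The fitting steps were tested on simulated data.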

Additional observations from a re-analysis of the deposited data

Results flagged for a closer look

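For 5 of the 10 genes the response to TGF-β differed between KO5 and WT MMC by the interaction term of the edgeR fit of all genes with a count, in which 5.57% of all genes had a higher and 11.2% a lower response in KO5. The log2 response in KO5 minus that in WT was 0.75 for Nrg1, 0.32 for Hbegf, -0.17 for Egfr, -0.48 for Ereg and -1.28 for Btc. The values for Nrg1, Hbegf and Egfr were called in every alternative run, whereas those for Ereg and Btc were lost without single libraries, as given with each gene. Libraries were left out under the RPKM limit for all of these genes but Btc. With all libraries, the edgeR adjusted p of Ereg was 0.0359 under that limit and 0.00465 in the fit of all genes with a count.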

How the results depend on the processing

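Under the alternatives, 816 of 868 values of the 10 genes kept their direction and their side of the threshold, 29 lost and 3 gained a call, and 20 changed direction. Counts here are of the members over the RPKM limit unless stated, including Areg, which passed it only in KO-TGF. With library size alone, 2 members were lower with TGF-β in WT in place of 1, with Egfr at -0.14, and 1 was higher in KO-SD in place of 2. This scaling also turned Ereg with TGF-β in KO5 to -0.085, Errfi1 to -0.071 in KO-SD and -0.024 in KO-TGF against WT, and in KO-TGF Erbb2 to -0.048 and Hbegf to -0.011. It moved the share of higher among called genes to 30.4% with TGF-β in WT, 25.5% in KO5, 36.9% for KO-SD against WT-SD, 23.3% for KO-TGF against WT-TGF and 20.6% for the difference between the responses. Without a filter, the lower members were 2 with TGF-β in WT, 4 in KO5 and 4 in KO-TGF against WT-TGF, since genes under the RPKM limit then entered. With only the groups compared, 1 member was higher in KO-SD, because Areg did not pass the limit there, and Errfi1 was -0.016. DESeq2 called 1 member with a lower response in KO5, gave -0.0096 for Errfi1 in SD and made no call on Tgfa with TGF-β in either genotype or in KO-TGF against WT-TGF.

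Leaving out each library gave 0 to 1 members lower with TGF-β in WT, 1 to 2 higher in KO-SD and 1 to 2 with a lower response in KO5. The values that changed direction were Egfr with TGF-β in WT (range -0.0044 to 0.031), Erbb3 there (-0.19 to 0.034), Ereg with TGF-β in KO5 (-0.0078 to 0.23), Errfi1 between genotypes in SD (-0.041 to 0.040) and the difference between the responses of Tgfa (-0.43 to 0.18). The cause was not tested. Libraries with the same replicate number did not deviate together (correlations of -0.03 to 0.09 over 18 pairs), so they share only a number. The fit with the replicate block as a term called 5 members higher and 1 lower with TGF-β in WT, 4 and 2 in KO5, 2 and 4 in KO-SD, 3 and 2 in KO-TGF, and 2 and 2 in the difference between the responses. It lost the call of Tgfa in KO5 (-0.96, adjusted p = 0.0514) and changed no other. At the counts of Areg, Btc, Tgfa and Erbb3, small changes were not detectable.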
